A study of Danio rerio with 2 samples.

Results

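Cells of the regenerating zebrafish ventricle that carried transcripts of 5 CC chemokine genes, *ccl39.1*, *ccl39.2*, *ccl39.3*, *ccl39.5* and *ccl34b.8*, were examined in 2 single-cell libraries, 1 from wild type and 1 from *cd74a; cd74b* mutants. Among the 10763 cell barcodes kept from both libraries, 231 were members. A kept barcode had over 300 genes detected and no more than 70% of its unique molecular identifiers (UMIs, each standing for 1 captured transcript) in mitochondrial genes. A member held at least 3 UMIs of the 5 genes together, at a share of its UMIs at least 3 times the pooled share of 0.0208%. A barcode was dropped if this fold was higher for a macrophage gene set (*mfap4*, *csf1ra*, *ccl35.1*, *ccl35.2*) or for a second leukocyte gene set (*gda*, *slc43a2b*, *ccr9a*, *cd7al*, *epdl1*). The members were therefore chosen on measured values, and the levels of the 5 genes in them are a description.

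The tissue was the border zone and injured area of ventricles taken 120 hours post-cryoinjury (hpci). Each library was a pool of 4 ventricles from 2 females and 2 males, all adults of the AB strain at most a year old per the study's methods. The mutants carried alleles of *cd74a* and *cd74b* made with CRISPR-Cas9, bns454 and bns456, small deletions predicted to truncate both proteins. Both groups were progeny of crosses that involved double heterozygotes. No transgene or treatment other than the cryoinjury is named for either group. Barcodes cannot be assigned to single fish, so a genotype is represented by 1 pooled library, and no difference between genotypes has a replicate check. Intervals below are at 95%, exact unless another method is named, and cover counting error only.

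Chemokines are small secreted proteins that guide leukocytes through G protein-coupled receptors. Zebrafish hold many more CC chemokine genes than mammals, in tandem arrays of close copies, and most have no single mammalian counterpart. Cd74 is the invariant chain that escorts MHC class II molecules to the compartment where peptide is loaded, and it also acts as a receptor for the cytokine Mif. After cardiac injury, macrophages and other leukocytes enter the wound, and chemokines are among the signals that recruit them. A RefSeq gene table (GRCz12tu assembly) held 4 of the 5 rule genes. *ccl39.1*, *ccl39.2* and *ccl39.3* stood next to each other there, and *ccl34b.8* lay on another chromosome. Reads can be divided between copies of a tandem family, so values of single *ccl39* genes are uncertain.

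The wild-type library held 4607 barcodes and the mutant library 15142, of which 3589 and 7174 were kept. Kept barcodes were shallow, with a median of 1404 UMIs in wild type and 1641 in the mutants. The members were close to each other in depth, with a median of 1755 UMIs and 532 genes in wild type against 1935 UMIs and 471 genes in the mutants. Their median mitochondrial share was 14.03% and 16.3%. In total, the wild-type members held 312761 UMIs of non-mitochondrial genes and the mutant members 67959, so that 1 UMI weighs more in the mutant members. The libraries had 15 barcode sequences in common, 7 of them among kept barcodes and 0 among members. Levels are UMI counts scaled to a total of 1000000 over non-mitochondrial genes (CPM). In the members, *cd74a* stood at 3233 CPM (3036 to 3438) in wild type and 441 CPM (298 to 630) in the mutants, and *cd74b* at 1711 CPM (1569 to 1862) and 250 CPM (146 to 401). Both targeted genes were thus lower in the library labeled mutant, with a log2 ratio of mutant over wild type of −2.87 (−3.45 to −2.35) and −2.77 (−3.56 to −2.08).

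Members were far more frequent in the wild-type library. They made up 190 of 3589 kept barcodes there, or 5.29% (Clopper-Pearson interval 4.58 to 6.08%), and 41 of 7174 in the mutant library, or 0.572% (0.410 to 0.775%). The ratio of the shares, mutant over wild type, was 0.108 (Katz interval 0.0772 to 0.151). The same kind of gate on the macrophage gene set gave a ratio of 0.637 (0.543 to 0.747), and the one on the *ccr9a* gene set 0.271 (0.177 to 0.416), so the 3 intervals do not overlap. Barcodes marked by fibroblast genes, chosen without a drop step and with members left out, also had a lower share in the mutants. They made up 12.9% (11.8 to 14.0%) of kept wild-type and 2.77% (2.41 to 3.18%) of kept mutant barcodes. A lower share in the mutant library was thus not limited to leukocyte gates. A barcode below the UMI minimum does not count as a member, and fewer cells of this kind and less chemokine RNA per cell cannot be told apart in these shares. The deposited mutant library also held more barcodes in all, and the shares depend on which barcodes were called as cells.

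The chemokine content of a member differed as well. A wild-type member held a median of 9 rule UMIs (lowest 3, highest 175), and a mutant member a median of 4 (lowest 3, highest 17). Of the wild-type members, 88 held at least 10 rule UMIs and 51 at least 20. Of the mutant members, 4 held at least 10 and 0 at least 20. At the threshold itself stood 34 wild-type and 17 mutant members with exactly 3 rule UMIs. Just outside it were 53 wild-type and 64 mutant barcodes with exactly 2, and 155 and 330 with exactly 1. Members held 90.03% of all rule UMIs in kept wild-type barcodes, and 29.1% in kept mutant barcodes. In the mutant library most chemokine UMIs thus lay scattered, 1 or 2 at a time, over barcodes outside the gate. The drop step removed 10 wild-type and 6 mutant barcodes for the macrophage set, and 9 and 5 for the *ccr9a* set.

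**Figure D1:**
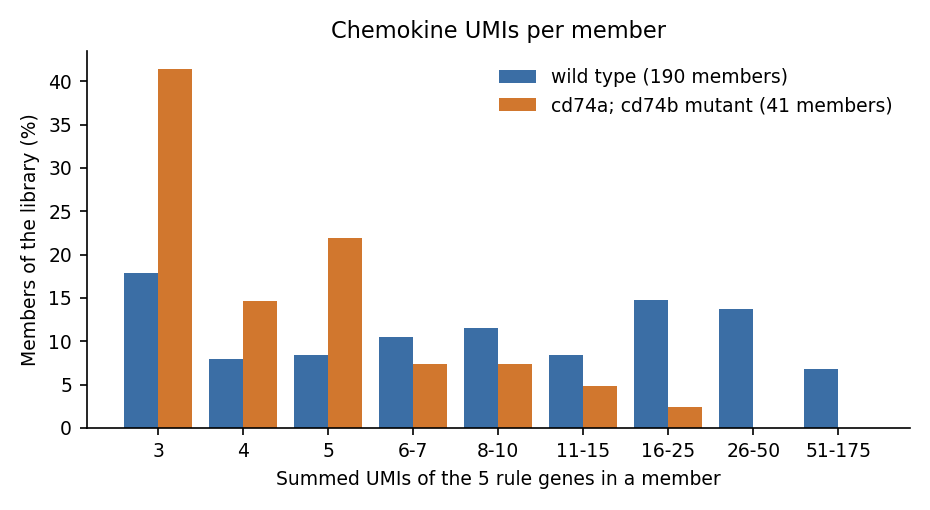
Share of members of each library (y axis, percent) by the summed UMIs of the 5 rule genes in a member (x axis, binned), for 190 wild-type and 41 mutant members. The mutant members pile up at 3 UMIs, with a highest value of 17, and 51 wild-type members hold 20 or more.

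The highest rule gene in both libraries was *ccl34b.8*, at 6069 CPM (5799 to 6348) in wild-type members and 1736 CPM (1437 to 2079) in mutant members. It was seen in 172 of 190 and 30 of 41 members. The 4 *ccl39* genes were lower and closer to one another in wild-type members, from 828 CPM for *ccl39.3* to 1298 CPM for *ccl39.1*. In mutant members they ranged from 118 CPM for *ccl39.3* to 544 CPM for *ccl39.2*. All 5 genes were lower in mutant members. The log2 ratio was −2.81 (−4.04 to −1.81) for *ccl39.3*, −2.22 (−2.96 to −1.55) for *ccl39.1*, −1.81 (−2.09 to −1.54) for *ccl34b.8*, −1.59 (−2.25 to −0.99) for *ccl39.5* and −0.95 (−1.48 to −0.46) for *ccl39.2*. Neighbors in this order overlap in their intervals. For *ccl39.3*, the 8 mutant UMIs came from 5 members, and 4 of them from 1 member. Since every member had to hold 3 rule UMIs, these ratios compare members only. In all other kept barcodes the 5 genes together stood at 69.8 CPM in wild type and 50.2 CPM in the mutants. Barcodes marked by fibroblast genes showed a *ccl34b.8* UMI in 11 of 463 wild-type and 3 of 199 mutant barcodes, at a median of 1685 and 1644 UMIs. Members had been left out of both sets, so these low values follow in part from the rule.

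The name of the group, leukocytes with *ccl39* chemokines, held for only part of it. A *ccl39* UMI was present in 93 of 190 wild-type members (48.9%) and 15 of 41 mutant members (36.6%), and the others were chosen by *ccl34b.8* alone. Members therefore fall into 3 kinds by the rule genes they show, a split made after the values were seen. In wild type, 75 members had both *ccl34b.8* and a *ccl39* UMI, 97 had *ccl34b.8* only and 18 had *ccl39* genes only. In the mutants, 4 had both, 26 had *ccl34b.8* only and 11 had *ccl39* genes only. Members with both thus made up 32.5 to 46.8% of the wild-type members and 2.72 to 23.1% of the mutant members, as intervals. All 5 rule genes were seen together in 27 of 190 wild-type and 0 of 41 mutant members, and a limit of 3 counts in 41 allows a share of members with these UMIs of up to 7.32%. A member with 3 or 4 rule UMIs cannot show all 5 genes. In the mutants 17 members held exactly 3 and 6 exactly 4, and in wild type 34 and 15. How many rule genes a member shows thus depends on its number of rule UMIs, which was lower in the mutants.

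To read each gene without its own part in the choice, the gate was rebuilt from the other 4 rule genes. Each *ccl39* gene was then found in 28.2 to 34.9% of the wild-type barcodes so chosen and in 0.647 to 1.35% of the kept barcodes outside. In the mutants the shares were 10.2 to 18.2% and 0.0982 to 0.533%. In both libraries, barcodes chosen by the other chemokines thus carried the *ccl39* gene left out more often than the rest. The rebuilt gate still held the other *ccl39* genes, and reads can be divided between these copies, so this is no independent check. For *ccl34b.8* the libraries differed. A gate on the 4 *ccl39* genes alone held 77 wild-type and 13 mutant barcodes. *ccl34b.8* was seen in 56 of the 77 (72.7%, interval 61.4 to 82.3%) against 7.74% of the wild-type barcodes outside, and in 1 of the 13 (7.69%, interval 0.195 to 36.0%) against 4.85% of the mutant barcodes outside. The next shares are of the members chosen with all 5 genes, so each gene had its own part in the choice. Members were thinned to 500 non-mitochondrial UMIs each, and 1 wild-type member was too shallow to enter. *ccl34b.8* was then present in 82.5% of wild-type and 48.8% of mutant members (90.5% and 73.2% without thinning). For *ccl39.2* the thinned shares were 22.8% and 22.0%, with overlapping intervals (29.5% and 29.3% without thinning).

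Checked against marker lists and summed over each library, the members held leukocyte and macrophage genes above their level in other kept barcodes. The members with *ccl39* genes only also held many transcripts of other cell types, as described below. All 14 listed pan-leukocyte genes were found in both libraries, among them *coro1a* and *lcp1*, which organize actin in blood cells. Their summed level was 4467 CPM in wild-type and 2634 CPM in mutant members, against 1455 and 1113 CPM in the other kept barcodes. The macrophage list stood at 24543 and 17496 CPM, against 6901 and 4147 CPM in the others and 36255 and 21008 CPM in the macrophage gate. This list holds the 4 genes used to drop barcodes, which also chose the macrophage gate, and the targeted *cd74a*. Its other 15 genes stood at 19609 and 16216 CPM in members, 22994 and 15690 CPM in the macrophage gate and 5156 and 3648 CPM in the others. In the *ccr9a* gate they were higher, at 50940 and 33520 CPM. Most of the level in members came from *grn1*, at 8128 and 7711 CPM, and from *c1qa*, *c1qb* and *c1qc*. The macrophage gene *mpeg1.1* was sparse, at 179 and 147 CPM in 44 of 190 and 9 of 41 members, and *irf8* gave 12 and 1 UMIs. At least 1 UMI of *c1qa*, *c1qb* or *c1qc*, which encode the chains of complement C1q, was present in 182 of 190 wild-type and 39 of 41 mutant members. Among fibroblast-marked barcodes of like depth this was the case for 16.2% and 15.6%. The summed C1q level was 9154 CPM in wild-type and 5636 CPM in mutant members, and 7660 and 4985 CPM in the macrophage gate. In members the log2 ratio was −1.20 (−1.46 to −0.96) for *c1qc*, −0.39 (−0.62 to −0.16) for *c1qb* and 0.12 (−0.34 to 0.56) for *c1qa*. Of the 15 T cell markers in the tables, 0 had a UMI in members of either library. The NK cell list had 1 and 3 UMIs, the mast cell or eosinophil list 1 and 1, and the dendritic cell list 18 and 3. B cell markers gave 48 UMIs in wild-type members, none from *cd79a*, *cd79b* or *pax5*, and 2 in mutant members.

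The neutrophil list was high, at 11149 and 10315 CPM, through *s100a10b*, an S100 family gene that gave 3272 of its 3487 wild-type and 672 of its 701 mutant UMIs and stood lower in members than in the other kept barcodes of both libraries. The neutrophil granule genes were at or near 0, with 1 UMI of *mpx* in wild type, 0 in the mutants, and 0 of *lyz* in both. *pnp5a*, a purine nucleoside phosphorylase gene and the next in level on this list in wild type, was at 390 CPM in 61 of 190 wild-type members and at 29.4 CPM in 1 of 41 mutant members, a log2 ratio of −3.73 (−6.79 to −1.84). Over all members of a library together, markers of the surrounding tissue were present below their level in other barcodes. This did not hold for every kind of member, as described below. Fibroblast markers stood at 1870 and 2281 CPM against 14562 and 8275 CPM in other kept barcodes, and cardiomyocyte markers at 6318 and 5224 CPM against 11399 and 10111 CPM. Doublets were not removed, and the part of such transcripts in the results below was not tested.

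**Figure D2:**
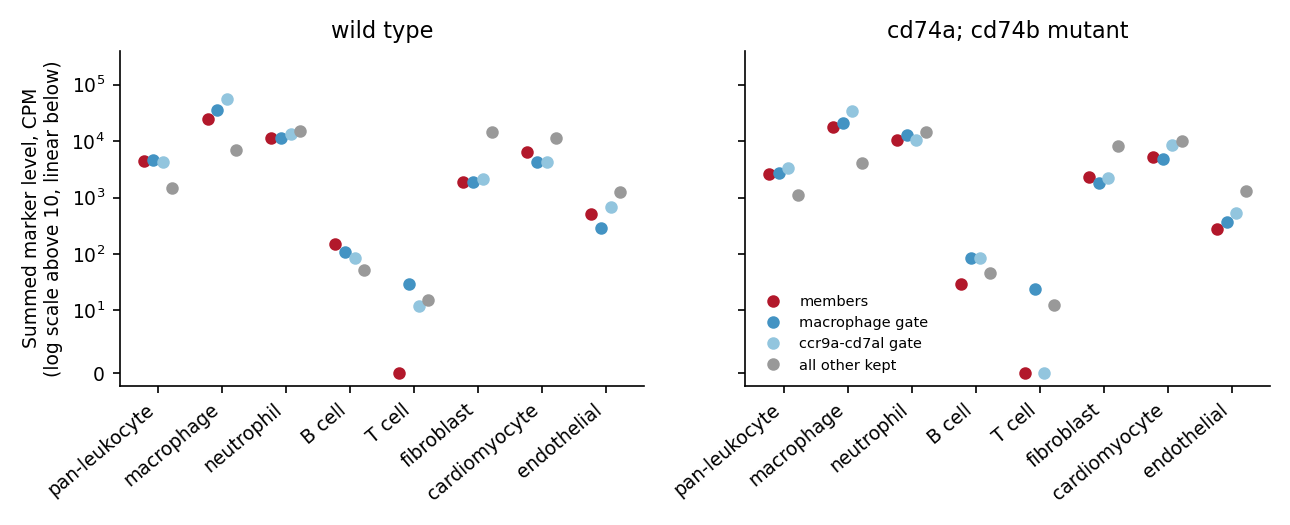
Summed level of 8 marker lists (y axis, CPM, log scale above 10) in members, in the macrophage and *ccr9a* gates and in all other kept barcodes, for wild type (left) and mutants (right). Members (red) lie with the other leukocyte gates for pan-leukocyte and macrophage markers, at 0 for T cell markers and below the other barcodes for fibroblast, cardiomyocyte and endothelial markers.

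Gene levels in members were compared with those in all other kept barcodes of the same library. Among 315 genes with at least 20 UMIs in the members of each library, 44 (14.0%) were at least 2-fold higher in members of both libraries and 11 (3.49%) at least 2-fold lower. The choice of members on genes of the same cells makes this a description. The 315 genes and the 44 include the rule genes *ccl34b.8*, *ccl39.2* and *ccl39.5*, whose folds follow from the rule. Outside the rule, the first by the smaller of the log2 folds was the unannotated *BX323596.2*, at 3.31 in wild type and 4.30 in the mutants. Most of its mutant UMIs, 33 of 43, came from 1 member. *tppp*, which encodes a protein that promotes tubulin polymerization, followed at 3.27 and 2.87, and *si:dkey-102g19.3* at 2.75 and 3.24. The 3 C1q genes were among them, with *c1qb* at 2.60 and 2.38, *c1qa* at 2.30 and 2.36 and *c1qc* at 2.80 and 2.096. They were not particular to the members, since 97.2% and 93.8% of macrophage gate barcodes had a C1q UMI, against 95.8% and 95.1% of members.

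*hp*, which encodes the hemoglobin-binding protein haptoglobin, stood at 3.197 and 2.42 on this log2 scale. It was at 1170 CPM (1053 to 1296) in wild-type members, 110 of 190 of which had a UMI, and at 456 CPM (310 to 647) in mutant members, 10 of 41. In the macrophage gate 24.9% of wild-type and 21.7% of mutant barcodes had an *hp* UMI, against 57.9% and 24.4% of members. Apart from the rule genes, the unannotated pair *BX649485.4* and *BX649485.2* had the highest wild-type folds among these 315 genes, at 4.97 and 4.50. Their folds were lower in the mutants, at 2.68 and 2.18. For *BX649485.2*, 47 of 107 wild-type UMIs came from 1 member, without which its level went from 342 to 192 CPM. *pmaip1*, the gene of the pro-apoptotic BH3 protein Noxa, was at 2.32 and 2.496. Further leukocyte genes of this set were *laptm5*, a lysosomal membrane protein of blood cells, at 2.47 and 2.02, *coro1a* at 1.99 and 1.82, the Fc receptor chain gene *fcer1gl* at 1.97 and 2.201, and the MHC class II gene *mhc2a* at 1.99 and 2.08. *laptm5* and *coro1a* were also common in the macrophage gate. A *laptm5* UMI was present in 52.6% and 47.2% of its barcodes, against 62.6% and 56.1% of members. For *coro1a* these shares were 51.8% and 34.2%, against 53.2% and 36.6%. The chemokine *ccl34a.4* was at 2.91 and 1.87. A *ccl34a.4* UMI was present in 55.3% of wild-type and 58.4% of mutant macrophage gate barcodes, against 77.4% and 53.7% of members. In the *ccr9a* gate this share was 54.2% and 28.1%, at 2306 and 1112 CPM against 2702 and 1162 CPM in members. *ccl34a.4* was thus also found in the other leukocyte gates, and in the mutants it was not particular to the members. *mfap4*, a zebrafish macrophage marker, was at 1.903 and 2.08, although the rule used it to drop barcodes. The set also held *zgc:64051*, *NPC2*, *si:dkey-5n18.1* and *C18H15orf48*, with log2 folds between 1.65 and 2.47.

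Between genotypes, 714 genes had at least 50 UMIs over the members. Of these, 26 (3.64%) were at least 2-fold higher and 161 (22.5%) at least 2-fold lower in mutant members, on a log2 scale with 0.5 added to each UMI sum. The minimum is a sum over both libraries, to which wild-type members gave 312761 UMIs and mutant members 67959. A gene seen mainly in mutant members thus passed it less easily, and *ifi45*, with 15 and 26 UMIs, did not. Both shares, and the 22.5% set beside the lists below, depend in part on this minimum. The median of all 714 ratios was −0.32, and that of 82 ribosomal protein genes 0.22. The ribosomal share of non-mitochondrial UMIs was 39.4% in wild-type and 46.2% in mutant members. Measured from the median instead of 0, 54 genes were higher and 101 lower. The median was −0.42 in the macrophage gate and −0.46 in all other kept barcodes, and near 0 in the *ccr9a* gate (−0.038 over 289 genes) and in the barcodes removed by the filter (−0.073). Ribosomal protein genes were 81 of the 289 genes of the *ccr9a* gate, with a median of 0.25, and 82 of the 714 of the members. These medians thus rest on unlike sets of genes. Members with 3 to 5 rule UMIs were 65 of 190 in wild type and 32 of 41 in the mutants. In wild type these differed from members with 6 or more. Their macrophage list stood at 19321 against 26714 CPM, and their cardiomyocyte markers at 9536 against 4980 CPM. The genotype ratios thus compare unlike mixes of members, and the part of this in them was not tested. Ratios below can be read against the median of −0.32, and ratios of single genes with UMIs in both libraries are given without the added 0.5.

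Among the genes with 0 UMIs in mutant members were *cxcl8b.1*, described next, and the *jac* genes, a jacalin family of lectin-like proteins. The rule left the *jac* genes out because the mutant library was already known to lack them, so their absence there is a description. In wild-type members the 9 *jac* symbols together gave 1361 UMIs, or 4352 CPM, and in mutant members 0 UMIs. A *jac* UMI was present in 104 of 190 wild-type members, or 54.7% (47.4 to 62.0%), and in 0 of 41 mutant members, for which the limit of 3 counts allows 7.32% of members with a UMI and the Clopper-Pearson interval 8.604%. Members held 90.1% of the 1511 *jac* UMIs in kept wild-type barcodes. In the wild-type macrophage gate 6 of 253 barcodes had a *jac* UMI (2.37%), and in the *ccr9a* gate 6 of 59 (10.2%). Of 95 wild-type barcodes with at least 3 *jac* UMIs, 82 were members. The mutant library held 2 *jac* UMIs over all 7174 kept barcodes, both outside the members, and 0 over its removed barcodes. The near absence of *jac* RNA was thus a feature of the whole mutant library and not of its members alone.

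Single *jac* genes followed the same pattern. *jac8* was at 1352 CPM (1227 to 1488) in 87 of the 190 wild-type members, *jac3* at 1193 CPM in 81, *jac9* at 924 CPM in 76, *jac6* at 576 CPM in 65 and *jac2* at 281 CPM in 41. Against a floor of 3 counts over the mutant members, *jac8* was at least 30.6-fold lower there, *jac3* at least 27.02-fold, *jac9* at least 20.9-fold, *jac6* at least 13.04-fold and *jac2* at least 6.37-fold. *jac1* and *jac10* had 6 and 2 UMIs in wild-type members, and *jac4* and *jac7* had 0. No single barcode carried these sums. The member with most *jac8* UMIs held 28 of 423, and the 3 highest members held 17.97%. The *jac* genes belong to 1 family too, so the split of reads between them is uncertain, and the sum over the family is given first for that reason.

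*cxcl8b.1*, a zebrafish copy of the neutrophil-attracting chemokine Cxcl8, had the lowest ratio of any single gene tested. It gave 549 UMIs in wild-type members, at 1755 CPM (1612 to 1909) in 98 of 190, and 0 in mutant members. Against the floor of 3 counts it was at least 39.8-fold lower there, and the upper end of the exact interval was a log2 ratio of −5.01. Members held 34.9% of its kept wild-type UMIs, a lower share than for the *jac* genes. It was lower in the mutants there too, at 201 against 10.3 CPM in all other kept barcodes. *si:ch211-165i18.2* was at 566 CPM in wild-type members, 97 of which had a UMI, and at 29.4 CPM in mutant members, from 2 UMIs. *BX322618.1* had 75 and 1 UMIs, and it was lower in the mutants in the other kept barcodes as well, with a log2 ratio of −2.29.

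The other genes of this end of the scale rested on few barcodes. Of 353 wild-type UMIs of *f13a1a.1*, the gene of a coagulation factor XIII A subunit, 349 came from 3 members with 207, 113 and 29 UMIs. Without members holding 10 or more of its UMIs, the log2 ratio with 0.5 UMI added turned from −3.80 to 2.47, so no direction can be given for it. The 68 wild-type UMIs of *ccl39.7*, not a rule gene, came from 11 members, with 44 in 1 of them.

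The 3 kinds of members shared these genes unequally in wild type. *jac* transcripts were at 6963 CPM in members with both chemokine types, 3316 CPM in those with *ccl34b.8* only and 225 CPM in those with *ccl39* genes only. A *jac* UMI was present in 45 of 75, 57 of 97 and 2 of 18 of them. *cxcl8b.1* was at 1797, 2036 and 96.5 CPM in the same order, *ccl34a.4* at 3117, 2757 and 868 CPM, and *hp* at 868, 1544 and 289 CPM. The 18 wild-type members with *ccl39* genes only also held more cardiomyocyte transcripts, at 34089 CPM against 3264 and 3244 CPM, and more fibroblast transcripts, at 6528 CPM against 1840 and 1021 CPM, and they contained the barcodes rich in *f13a1a.1*. Their C1q level was lower, at 5531 CPM against 9463 and 9617 CPM, with a C1q UMI in 15 of 18. Their pan-leukocyte list was lower too, at 2894 CPM against 4697 and 4601 CPM, and their macrophage list lay between the other kinds, at 24538 CPM against 27008 and 22838 CPM. In the mutants, the 11 members with *ccl39* genes only stood apart likewise, with fibroblast markers at 8708 CPM against 717 CPM in the 26 members with *ccl34b.8* only, and with a median mitochondrial share of 28.8% against 14.3%. Cardiomyocyte markers were at 10128 against 4363 CPM, and the macrophage list at 10885 against 19317 CPM. Beside all other kept barcodes, cardiomyocyte markers of this kind were at 34089 against 11399 CPM in wild type and 10128 against 10111 CPM in the mutants. Fibroblast markers were at 6528 against 14562 CPM and 8708 against 8275 CPM. The pan-leukocyte list was at 2894 against 1455 CPM and 2177 against 1113 CPM, with a UMI in 18 of 18 and 8 of 11 members. Markers of other cells thus moved with this kind of member in both libraries, and their part in it was not tested.

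**Figure D3:**
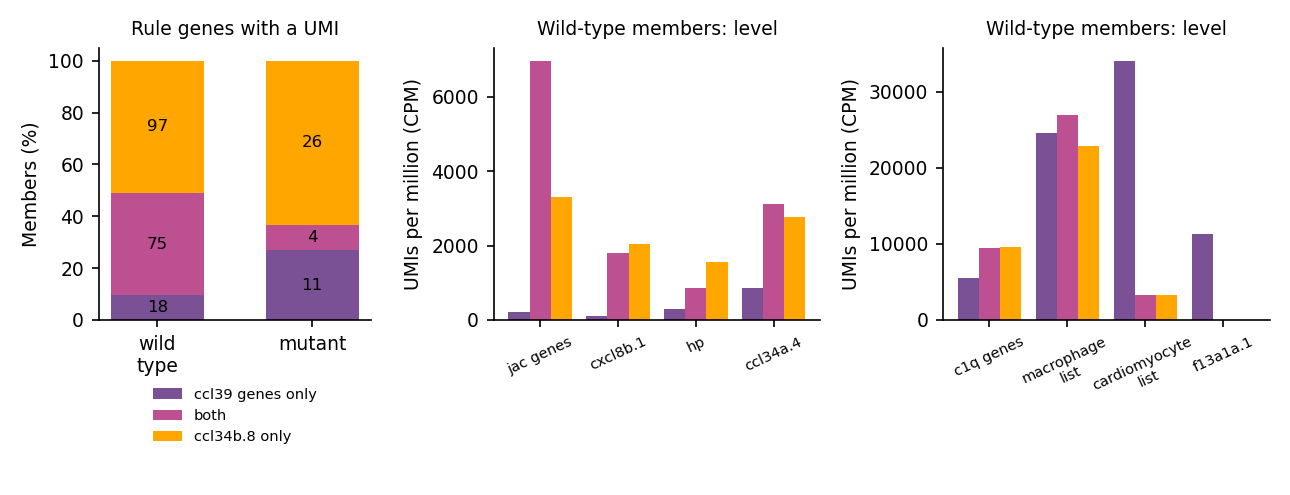
Left, percent of members by the rule genes with a UMI, with the number of members printed in each block. Middle and right, summed levels (CPM) in wild-type members of the same 3 kinds. The members with both types go from 75 of 190 in wild type to 4 of 41 in the mutants. Levels of *jac*, *cxcl8b.1*, *hp* and *ccl34a.4* transcripts are higher in members with *ccl34b.8*. Levels of cardiomyocyte and *f13a1a.1* transcripts are higher in those with *ccl39* genes only.

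Of 50 chemokine genes in the tables, 32 had a UMI in members and 11 had at least 50 UMIs. Apart from the rule genes, the most abundant was *ccl34a.4*, at 2702 CPM in wild-type members, where 147 of 190 had a UMI, and 1162 CPM in mutant members, where 22 of 41 had one. Its log2 ratio was −1.22 (−1.57 to −0.88), and in the macrophage gate it was −0.42. *ccl35.1*, one of the genes used to drop barcodes, was at 854 and 353 CPM, giving a log2 ratio of −1.27 (−1.94 to −0.67). *ccl38.1* was at 134 and 132 CPM, giving a log2 ratio of −0.02 (−1.24 to 1.04), and *ccl34b.1* at 128 and 103 CPM, a log2 ratio of −0.31 (−1.72 to 0.86). Their intervals include both no difference and a 2-fold one. *cxcr4b*, the receptor of Cxcl12, was the most abundant of the chemokine receptor list, at 496 and 383 CPM, giving a log2 ratio of −0.37 (−1.03 to 0.23). Of 24 listed receptor genes in the tables, 10 had a UMI in wild-type and 5 in mutant members.

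At the other end, the highest ratio was that of *CR318588.1*, an unannotated gene at 1314 CPM in wild-type and 56358 CPM in mutant members, where all 41 had UMIs. This gene was higher in the mutant library in every group of barcodes, with log2 ratios of 5.42 in members, 3.18 in the macrophage gate and 3.91 in all other kept barcodes, and it was found in 6759 of 7133 of the latter. Its neighbor in name *CR318588.3* behaved alike, at 3.08 in members and 1.11 in other barcodes. Both genes were higher in the mutant library as a whole.

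*grn2* and *ctss2.1* had a different ratio in the members than in the macrophage gate. *grn2*, which encodes a granulin, a family of secreted and lysosomal proteins, was at 128 CPM in 20 of 190 wild-type members and at 1633 CPM in 18 of 41 mutant members, with a log2 ratio of 3.67 (3.14 to 4.23). In the macrophage gate the ratio was 0.88. In the mutant members 72 of its 111 UMIs came from 3 barcodes. Its paralog *grn1* was at 8128 and 7711 CPM, giving a log2 ratio of −0.08 (−0.21 to 0.06), and how reads were divided between these copies is not known. *ctss2.1*, a cathepsin S gene (cathepsin S cleaves the invariant chain in mammals), was at 662 CPM in 76 wild-type and 2148 CPM in 27 mutant members, with a log2 ratio of 1.70 (1.38 to 2.01) and with no more than 19 of its 146 mutant UMIs in 1 member. In the macrophage gate the ratio was −0.66. With 1 library per genotype, these differences between gates have no test.

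Interferon-responsive genes were sparse. *ifi46*, which is not on the interferon list, was at 76.7 CPM in wild-type and 515 CPM in mutant members. Its log2 ratio was 2.75 (1.96 to 3.56), against 1.12 in the macrophage gate. *ifi45* gave 15 and 26 UMIs, with a log2 ratio of 3.00 (2.03 to 4.02), and *isg15*, a ubiquitin-like protein induced by interferon, gave 0 and 15. Of 20 listed genes in the tables, 11 had a UMI in wild-type and 10 in mutant members, and fewer than 3 passed the minimum of 50 UMIs, so no median is given. The list median was 0.42 over 4 genes in the macrophage gate and 0.20 over 13 in the other kept barcodes. In the latter 5 of the 13 were at least 2-fold higher in the mutants and 0 lower, beside 140 higher of all 8321 genes. Higher values were thus not limited to the members. Further genes of the 10 highest were the linker histone gene *h1-10* at 1.71 (0.85 to 2.54), *rnf213a*, which encodes a large ubiquitin ligase, at 1.62 (0.72 to 2.48) but −2.11 in members with a *ccl39* UMI, the smooth muscle gene *tagln* at 1.24 (0.42 to 2.01) and *BX323596.2* at 2.63 (1.93 to 3.34). The last 2 rested on single barcodes, with 15 of 22 *tagln* and 33 of 43 *BX323596.2* mutant UMIs in 1 member each.

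**Figure D4:**
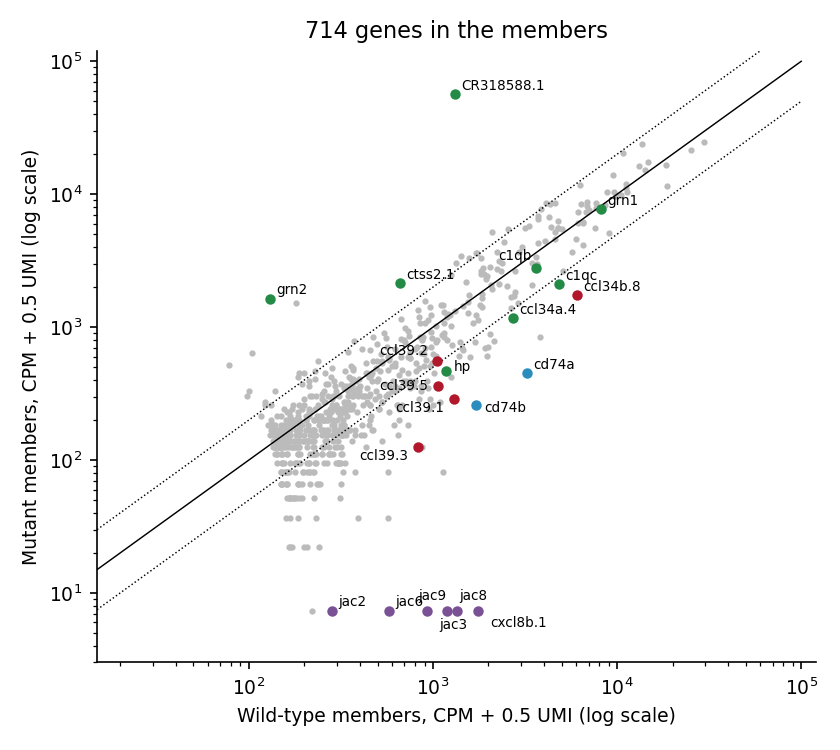
Level in wild-type members (x axis) and mutant members (y axis), both in CPM with 0.5 UMI added and on log scales, for the 714 genes with at least 50 UMIs. The solid line marks equal levels and the dotted lines 2-fold differences. The 5 rule genes (red) and the targeted genes (blue) lie below, the *jac* genes and *cxcl8b.1* (purple) lie at 0 UMIs in the mutants, and *CR318588.1* lies highest above the line.

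Among the functional lists, heat shock and glycolysis genes stood lowest. Of 13 heat shock genes tested, 9 were at least 2-fold lower in mutant members and 0 higher, with a median log2 ratio of −1.38 beside −0.32 over all genes. The inducible *hsp70.1* was at 1084 and 265 CPM, giving a log2 ratio of −2.03 (−2.81 to −1.35), and the endoplasmic reticulum chaperone gene *hspa5* at 860 and 324 CPM, a log2 ratio of −1.41 (−2.11 to −0.78). Of 13 glycolysis genes, 7 were at least 2-fold lower and 0 higher, with a median of −1.39. The enolase gene *eno1a* was at 873 and 118 CPM, a log2 ratio of −2.89 (−4.12 to −1.89), and *gapdhs*, a glyceraldehyde-3-phosphate dehydrogenase gene, at 3789 and 839 CPM, a log2 ratio of −2.18 (−2.59 to −1.79). Both shares were above the 22.5% of all genes that were lower. The macrophage gate had medians of −1.22 and −1.17 for these lists, and the other kept barcodes −0.84 and −0.79, so lower values were not limited to the members.

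AP-1 and immediate early genes, which many cells switch on soon after a stimulus, had a median of −0.91, with 5 of 14 lower by 2-fold, or 35.7% beside 22.5% of all genes, and 0 higher. *jdp2b* was the most abundant, at 2644 and 1383 CPM (log2 ratio −0.93), and *junbb* had the lowest ratio, at −2.05 from 76 and 4 UMIs. The median was −0.89 in the macrophage gate and −0.86 in other barcodes. The 5 testable NF-kB and inflammatory regulators had a median of −0.95, which was 0.057 when genes with 20 or more UMIs were included. Among them was *cebpb*, a transcription factor gene of myeloid cells, at 2040 and 883 CPM, with a ratio on the log2 scale of −1.21 (−1.62 to −0.82). Actin and migration genes had a median of −0.60, with 3 of 16 lower (18.8%, under the 22.5% of all genes), led in level by *tmsb4x*, which encodes an actin-binding thymosin, at 29745 and 24647 CPM. Proliferation genes had a median of −0.36, with 0 of 5 past 2-fold. *srgn*, the gene of the granule proteoglycan serglycin and the most abundant of the pan-leukocyte list in wild-type members, was at 838 and 280 CPM, a log2 ratio of −1.58 (−2.34 to −0.91).

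Antigen presentation genes were mixed. The list median was −0.15, with 3 of 11 lower, namely *cd74a*, *cd74b* and the cathepsin L gene *ctsla*, and 1 higher, *ctss2.1*. The share of 27.3% lower was near the 22.5% of all genes. Measured from the median of all genes, it was 0.17 above. *mhc2a* was at 470 CPM in wild-type and 839 CPM in mutant members, with a log2 ratio of 0.84 (0.37 to 1.29), and *mhc2dab* at 652 and 338 CPM, a log2 ratio of −0.95 (−1.64 to −0.32). *b2m* and *b2ml*, which encode the light chain of class I molecules, were at 579 and 574 CPM and at 563 and 706 CPM. In the macrophage gate the list median was −0.94. Lysosome and protease genes had a median of −0.23, with 3 of 18 lower (16.7% beside 22.5% of all genes) and 2 higher, *grn2* and *ctss2.1*, against −0.92 in the macrophage gate, and lay 0.10 above the median of all genes. The lowest was the cathepsin B gene *ctsba*, at 470 and 162 CPM, giving a log2 ratio of −1.54 (−2.57 to −0.66).

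Ferritin and iron genes had a median of 0.43 over 4 genes, against −1.08 over 6 genes in the macrophage gate, the lowest of them at −5.44. These medians thus rest on different sets of genes. *fthl27*, a ferritin heavy chain-like gene, was at 4607 and 8535 CPM, but 300 of its 580 mutant UMIs and 474 of its 1441 wild-type UMIs came from 1 member each. *fth1a* was at 732 and 177 CPM, giving a log2 ratio of −2.05 (−3.03 to −1.22). *hmox1a*, the heme-degrading oxygenase, was at 553 and 824 CPM, a log2 ratio of 0.58. The list median had the opposite sign, at −0.49, without the members among the top 10% of kept barcodes by UMIs. The 4 testable cytokine genes had a median of −0.05, and *mif*, whose product binds Cd74, was at 307 and 294 CPM. *il1b* gave 10 and 5 UMIs, and *tnfa* 5 and 0, too few to compare.

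**Figure D5:**
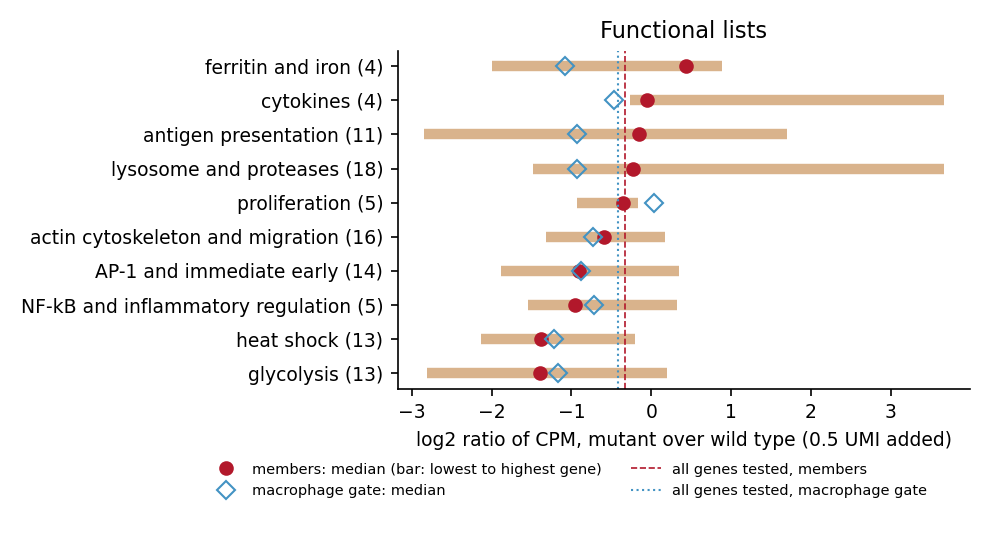
Median log2 ratio of CPM, mutant over wild type (x axis), of the tested genes of each functional list in members (red points, with bars from the lowest to the highest gene) and in the macrophage gate (open blue diamonds). The number of genes tested in members is in parentheses, and vertical lines mark the medians of all genes. The genes tested in the macrophage gate can differ from these. Heat shock and glycolysis lists lie lowest in both, and the ferritin, antigen presentation and lysosome lists lie higher in members.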

How the data were processed

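The deposited values were whole-number counts of UMIs per gene and barcode, which the authors made by alignment to danRer11 with STARsolo, as the submitters' processing notes name them (versions are not given in the sources used here), without normalization. Per the labels, dead cells were removed and Chromium 3' v3.1 libraries were sequenced, 1 lane each. Barcode filters and the gate were applied as described in the opening. Doublets were not removed here. The study's methods name doublet removal with Scrublet for its sorted immune cells. For these libraries they refer back to that processing without naming the step again.

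UMIs were summed over members per library and scaled to 1000000 non-mitochondrial UMIs, leaving out 37 mitochondrial genes (13 of them named mt-). Poisson, Clopper-Pearson and conditional binomial intervals are at 95% confidence and cover only the error of counting. No test across samples was made, since a genotype has 1 library. A gene was called at a 2-fold difference (0.5 UMI added) among genes with 50 or more UMIs. Calculations used Python 3.11.15, numpy 2.4.6 and scipy 1.17.1 and were tested on simulated data.

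Members and lists were chosen with earlier results of these data known. Genes were named by rule: the rule genes, *cd74a*, *cd74b*, the 20 genes that most went with the gate in both libraries, the 10 highest and 10 lowest mutant-to-wild-type ratios (without mitochondrial and ribosomal genes), the gene with most UMIs of each list, and the *jac* genes. 1 gene that the rule names is not reported here. Other list members and chemokines were chosen after their values were seen. Alternatives covered the gate's limits, depth, scaling, cell weighting and gene minimum. No sequences are shown.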

Additional observations from a re-analysis of the deposited data

How the results depend on the processing

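No paired analysis was possible because each genotype has 1 library. Of 16 alternatives, 3 were added after the data were seen: members with a *ccl39* UMI, members with *ccl34b.8* only, and members without 10 or more *f13a1a.1* UMIs. Of 38 named genes past 2-fold, 34 kept their direction in each alternative run for that gene (up to 14) and 23 stayed past 2-fold. The ratio of member shares, 0.108, was 0.182 at a minimum of 2 rule UMIs and 0.0639 at 5. The summed log2 ratio of the rule genes, −1.77, was −2.01 at a mitochondrial share of at most 30%, −2.10 above 500 genes, −1.45 as a mean over members, −1.44 scaled by the median gene ratio, −1.54 in members with a *ccl39* UMI and −1.53 in those with *ccl34b.8* only. The 44 genes higher in members of both libraries became 21 above 500 genes, 20 at 5 rule UMIs and 11 in members with a *ccl39* UMI. Genes higher and lower in mutant members, 26 and 161, became 62 and 395 at a minimum of 20 UMIs a gene, 16 and 91 at 100, 54 and 101 under median scaling, and 16 and 99 in members with *ccl34b.8* only. Those higher were 17 when scaled on all UMIs, and those lower were 87 in members with a *ccl39* UMI. The NF-kB list median, −0.95, was 0.057 at a minimum of 20 UMIs. The ferritin median, 0.43, was −0.49 without members among the top 10% of kept barcodes by UMIs, −2.14 in members with a *ccl39* UMI and 1.203 in those with *ccl34b.8* only. Single genes that turned were *BX323596.2* (−0.60 above 500 genes), *rnf213a* (−2.11 in members with a *ccl39* UMI), *ccl39.7* (0.18 in members with *ccl34b.8* only) and *f13a1a.1* (2.47 without members rich in it and 1.03 in members with *ccl34b.8* only). Apart from the smaller sets of genes or members used, the cause was not tested. With 41 mutant members and 67959 UMIs, a gene under about 3 UMIs there cannot be told from 0.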
